A study of Mus musculus with 8 samples.

Results

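The genes described here carry signals from dopamine and related receptors to cyclic AMP in striatal projection neurons, and they were followed in lateral ganglionic eminence (LGE) of mouse embryos at E18.5. There are 9 of them: Gnal, Gng7, Adcy5, Rgs9, Pde10a, Pde1b, Ppp1r1b, Arpp21 and Ptpn5. They were chosen by name, as striatum-enriched genes acting downstream of dopamine receptors, and all 9 were found among the 15705 genes of the expression table. The choice was made with earlier results of these data known. The LGE is the embryonic structure from which striatal projection neurons arise. The 4 control libraries carried the genotype Isl1 flx/flx and the 4 conditional knockout (cKO) libraries the genotype Dlx1-Cre; Isl1 flx/flx, so both groups had floxed Isl1 alleles and only the cKO had Cre. Per the series' design text the groups were littermates, though which embryos shared a litter is not given. No group with Cre and intact Isl1 was analysed here, and the effects of Cre and of the deletion cannot be told apart. Dlx1 marks ventral forebrain progenitors and their neurons, so cells of other origin in the dissected tissue would keep their alleles. The comparison asks how these genes differ when Isl1 is targeted, which encodes a homeodomain factor of developing striatal and other ventral neurons.

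In striatal projection neurons, D1 dopamine receptors activate adenylyl cyclase through a G protein built around the alpha subunit Golf, encoded by Gnal, and D2 receptors inhibit it. The cyclic AMP that is made activates protein kinase A, which phosphorylates small regulatory proteins such as DARPP-32, and phosphodiesterases break the signal down. These proteins accumulate as projection neurons mature, and several of them serve as markers of the striatum.

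Isl1 itself had adjusted read values of 3777, 3692, 4186 and 3517 in controls 1 to 4 and 4930, 5377, 5618 and 5971 in cKO 1 to 4. It was higher in every library labelled cKO, by 0.53 ± 0.06 (log2 fold change ± SE, adjusted p = 0.000338, limma with Benjamini-Hochberg adjustment over all genes, as for every adjusted p below unless another test is named). A value summed over the whole gene can include transcripts that lack the deleted part. Which part is deleted was not known here, so this value does not check the labels, and each direction below is that of the libraries as labelled. The adjusted read values are scaled reads per gene and library, and the sequencing depth is unknown. General LGE and striatal markers were present in all libraries, with 12 of 12 detected and a summed RPKM (the read value scaled by library sum and gene length) of 683 to 714 in the controls and 691 to 730 in the cKO. Pallial neuron markers, which show neighbouring cortex in a dissection, summed to 2.08 in control 3 and 8.04 in cKO 4 but to between 16.1 and 23.5 in the other 6 libraries. Of these 11 markers Bhlhe22 rose in the cKO (2.61 ± 0.39, adjusted p = 0.00151) and the other 10 did not pass. Without Bhlhe22 the sums were 1.86 in control 3 and 4.27 in cKO 4, again the lowest, and 11.7 to 20.4 in the others.

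In the libraries labelled cKO 6 of the 9 genes fell, 0 rose, and 3 did not pass the test at an adjusted p of 0.05; all 9 fold changes were below 0. Over all 15698 genes tested, 3.78% fell and 2.87% rose. Because the 9 genes were chosen with earlier results of these data known, these shares are a background and not a test. Arpp21 fell to 44.3% of the control value and Ppp1r1b to 59.7%, while Pde10a, Pde1b, Gng7 and Gnal fell to between 77.3% and 80.4%. The read values of the control and cKO libraries did not overlap for any of these 6 genes. Across all genes, 6.33% had non-overlapping groups with lower cKO values and 6.37% had them with higher ones. Adcy5, Ptpn5 and Rgs9 had overlapping groups and 95% intervals that included 0. The median log2 fold change of the 9 genes was -0.34, against 0.01 for all genes tested. These are bulk samples, so fewer cells of a type and less RNA per cell cannot be told apart.

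**Figure D1:**
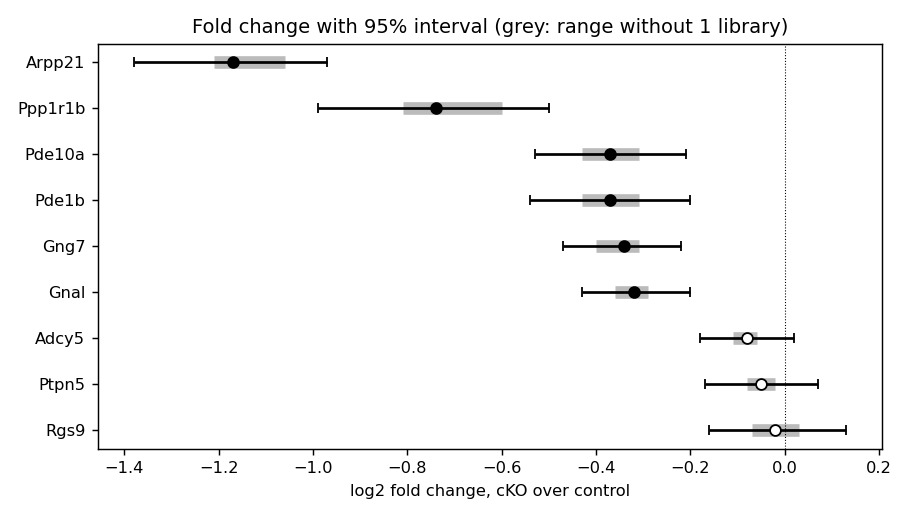
Log2 fold change of cKO over control for each of the 9 genes (x axis), with its 95% interval as the black bar and the range over the fits that leave out 1 library as the grey band. Filled points passed the test. Arpp21 at -1.17 and Ppp1r1b at -0.74 lie furthest from 0, 4 genes lie between -0.37 and -0.32, and the intervals of Adcy5, Ptpn5 and Rgs9 include 0.

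Gnal encodes the G protein alpha subunit Golf, which couples dopamine and adenosine receptors to adenylyl cyclase in the striatum (chromosome 18, 67088216 to 67226792, plus strand, GRCm38). Gnal read values were 11699, 10832, 11499 and 11861 in controls 1 to 4 and 9506, 8668, 10109 and 8662 in cKO 1 to 4. Every control library stood above every cKO library. The mean went from 11470 ± 452 to 9236 ± 704 (SD, n = 4 each), a log2 fold change of -0.32 ± 0.05 with an adjusted p of 0.00341. Gnas, which encodes the widely expressed stimulatory alpha subunit Gs, was at 29140 ± 1030 and 28820 ± 1430 (-0.02 ± 0.04, adjusted p = 0.894). Per length, Gnal took 34.7% ± 1.66 of the summed RPKM of Gnal and Gnas in the controls and 30.2% ± 1.88 in the cKO (exact two-sided permutation p = 0.0286, the smallest that 4 libraries against 4 can give, and 0.0857 adjusted over 9 such shares). Of the exonic bases of Gnal in the annotation, 7.6% overlap Mppe1 on the other strand, whose values did not separate the groups (0.00 ± 0.11, adjusted p = 0.998).

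Gng7 encodes the gamma subunit that assembles with Golf in striatal neurons (chromosome 10, 80948624 to 81014945, minus strand). In the controls it had read values of 4880, 4523, 4691 and 4850, and in the cKO 3698, 3577, 4240 and 3465. The cKO libraries all lay below the controls, with cKO 3 nearest to them, as it was for Gnal. Gng7 fell from 4736 ± 164 to 3745 ± 343 (-0.34 ± 0.06, adjusted p = 0.00344). The changes of Gnal and Gng7 differed by 0.03 ± 0.03 on the log2 scale (exact permutation p = 0.371). Across the 8 libraries their values had a Pearson correlation of 0.986, a description over libraries that include both groups.

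Adcy5 encodes the cyclase that makes most of the cyclic AMP in the striatum (chromosome 16, 35154877 to 35305738, plus strand). Its read values were 1514, 1423, 1464 and 1457 in the controls and 1425, 1462, 1299 and 1343 in the cKO. Control 2, the lowest control, lay below the 2 highest cKO libraries, so the groups overlapped. The log2 fold change was -0.08 ± 0.05, with a 95% interval of -0.18 to 0.02 and an adjusted p of 0.362. Genes of the G protein subunits that act before this enzyme and of phosphodiesterases that act after it fell in the same libraries. The test of the difference between Adcy5 and Pde10a gave 0.29 ± 0.08 (exact permutation p = 0.0286, 0.0605 adjusted over 36 pairs of the 9 genes), and that between Adcy5 and Gnal 0.23 ± 0.08 (exact permutation p = 0.0857, adjusted 0.119).

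Rgs9 encodes a regulator that speeds the return of G proteins to their inactive state, and its long splice form is the striatal one (chromosome 11, 109225355 to 109298129, minus strand). Its read values were 1112, 1123, 1022 and 1166 in the controls and 1229, 1038, 999 and 1114 in the cKO. The highest and the lowest of the 8 values were both cKO libraries. The log2 fold change was -0.02 ± 0.07 with a 95% interval of -0.16 to 0.13 (adjusted p = 0.932). These values are sums over the gene, so the splice forms were not separated.

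Pde10a encodes a phosphodiesterase highly enriched in striatal projection neurons that breaks down cyclic AMP and cyclic GMP (chromosome 17, 8525372 to 8986648, plus strand). For Pde10a the read values were 8698, 7430, 7696 and 8632 in the controls and 7008, 6176, 6434 and 5508 in the cKO. Control 2 and cKO 1 were the nearest libraries of the groups, which did not overlap. Pde10a fell from 8114 ± 646 to 6282 ± 622 (-0.37 ± 0.07, adjusted p = 0.00909). Without the mean trend in limma the adjusted p was 0.0597.

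Pde1b encodes a calcium- and calmodulin-stimulated phosphodiesterase (chromosome 15, 103503034 to 103530052, plus strand). Its read values were 2756, 2759, 2530 and 2623 in the controls and 1854, 2349, 2277 and 1838 in the cKO. The cKO libraries fell into a lower pair, 1 and 4, and a higher pair, 2 and 3, all under the controls. The mean fell from 2667 ± 111 to 2080 ± 271 (-0.37 ± 0.08, adjusted p = 0.0151). Pde10a and Pde1b thus had the same rounded fold change, and the difference between them was 0.00 ± 0.13 (exact permutation p = 0.971). The call for Pde1b was lost without the mean trend (adjusted p = 0.0755) and without control 3 and cKO 4, the libraries lowest in pallial markers (-0.34, adjusted p = 0.0693).

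Ppp1r1b encodes DARPP-32, which inhibits protein phosphatase 1 when protein kinase A has phosphorylated it and is a classical marker of striatal projection neurons (chromosome 11, 98348404 to 98357796, plus strand). Ppp1r1b had read values of 2073, 1873, 1916 and 2139 in the controls and 1245, 1342, 1356 and 893 in the cKO. The groups were well apart, and cKO 4 was the lowest library. Ppp1r1b fell from 2000 ± 126 to 1209 ± 216 (-0.74 ± 0.11, adjusted p = 0.00172), and the fold change was -0.60 without cKO 4 (adjusted p = 0.000165). Its relative Ppp1r1a, inhibitor 1, went from 894 ± 48.3 to 784 ± 93.4 and did not pass (-0.20 ± 0.08, adjusted p = 0.215). Ppp1r1b therefore went from 57.8% ± 2.61 of the summed RPKM of this pair to 48.4% ± 5.49 (exact permutation p = 0.0286, adjusted 0.0857), from 54.6% to 60.9% in single controls and from 40.9% to 53.9% in single cKO libraries. In the annotation, 15.7% of its exonic bases overlap 1700003D09Rik on the other strand, which was not analysed here.

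Arpp21 encodes a cyclic AMP-regulated phosphoprotein, and its longer products carry an R3H domain that binds RNA (chromosome 9, 112065091 to 112235938, minus strand). The read values of Arpp21 were 4859, 4250, 4441 and 4956 in the controls and 2227, 2173, 2228 and 1629 in the cKO. Libraries cKO 1 to 3 lay close together and cKO 4 lay below them, and all were far under the controls. The mean fell from 4626 ± 336 to 2064 ± 291 (-1.17 ± 0.09, adjusted p = 1.45e-05), the largest fold change of the 9 genes. Without cKO 4 the fold change was -1.06 (adjusted p = 3.72e-06). Its relatives R3hdm1 and R3hdm2 did not pass, so that Arpp21 went from 19.0% ± 1.04 to 9.59% ± 1.17 of the summed RPKM of the 3 genes (exact permutation p = 0.0286, adjusted 0.0857). This is a move of -9.40 points, and on read values, which are not per length, it was -15.4 points. Of its exonic bases, 3.3% overlap the antisense gene 2900079G21Rik, which was at 221 ± 10.2 and 170 ± 27.8 (-0.39 ± 0.11, adjusted p = 0.0599).

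An intron of Arpp21 also holds Mir128-2, a gene for the neuronal microRNA miR-128 (chr9:112118636-112118711, minus strand), and an intron of its relative R3hdm1 holds the second gene, Mir128-1 (chr1:128202361-128202430, plus strand). The mature products are shown because the 3p product is the same from both hosts while Arpp21 fell and R3hdm1 did not pass. They are from RefSeq (GRCm38.p6), 5′ to 3′, with the seed (bases 2 to 8) in capitals.
mmu-miR-128-3p, from either gene: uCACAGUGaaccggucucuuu
mmu-miR-128-2-5p, from the gene in Arpp21: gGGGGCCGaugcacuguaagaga
mmu-miR-128-1-5p, from the gene in R3hdm1: cGGGGCCGuagcacugucuga
The 5p products share their seed with each other but not with the 3p product, and they differ outside it. R3hdm1 had read values of 4058 ± 136 and 4018 ± 219 in the control and cKO libraries (-0.02 ± 0.04, adjusted p = 0.902), against the fall of -1.17 of Arpp21. Poly(A) libraries do not measure mature microRNAs, so the level of miR-128 was not measured.

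Ptpn5 encodes STEP, a striatum-enriched tyrosine phosphatase that dopamine signalling controls through protein kinase A (chromosome 7, 47077795 to 47133684, minus strand). For Ptpn5 the read values were 1794, 1711, 1798 and 1627 in the controls and 1578, 1743, 1587 and 1796 in the cKO. The groups overlapped over most of their range, and cKO 4, the lowest cKO library for 6 of the 9 genes, was the highest for Ptpn5. The log2 fold change was -0.05 ± 0.05 (95% interval -0.17 to 0.07, adjusted p = 0.692). Ptpn5 made up 85.4% ± 0.899 of the summed RPKM of Ptpn5 and its relative Ptprr in the controls and 85.9% ± 0.753 in the cKO (exact permutation p = 0.457).

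**Figure D2:**
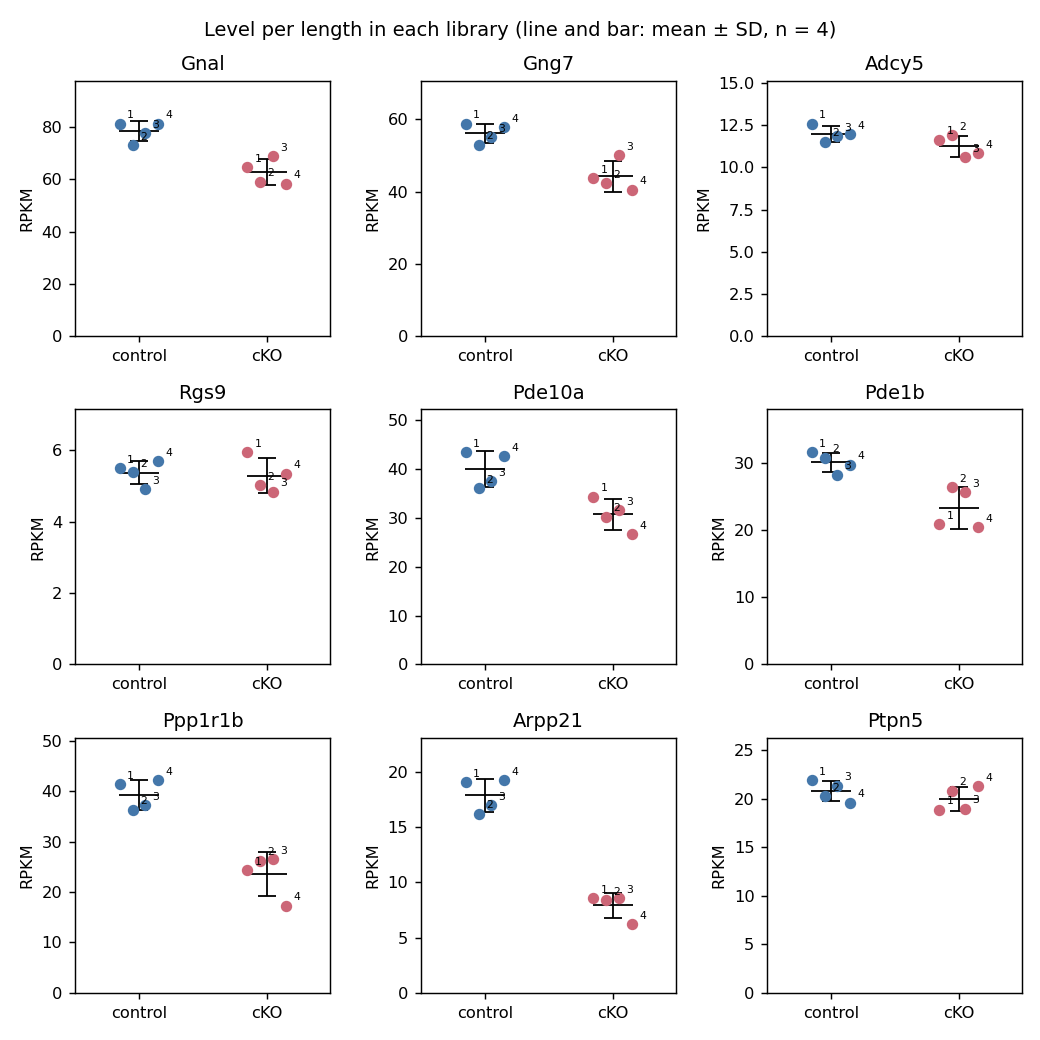
RPKM (y axis, from 0) of the 9 genes in each library, with replicate numbers beside the points and the mean ± SD of 4 libraries in black. Control and cKO points do not overlap for Gnal, Gng7, Pde10a, Pde1b, Ppp1r1b and Arpp21, and they overlap for Adcy5, Rgs9 and Ptpn5. In every gene without overlap, cKO 4 is the lowest point.

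The 9 genes covered a wide range of levels. Per length, the controls ran from Gnal at 78.4 ± 3.89 RPKM, above 94.8% of all genes tested, to Rgs9 at 5.37 ± 0.328, above 41.6%. Between them stood Gng7 at 56.2, Pde10a at 39.9, Ppp1r1b at 39.2, Pde1b at 30.1, Ptpn5 at 20.8 and Arpp21 at 17.9 RPKM, with Adcy5 at 11.5 to 12.6 RPKM over the controls. Only Pde10a and Ppp1r1b were neighbours with overlapping ranges over the control libraries. In the cKO, Arpp21 at 7.93 ± 1.15 RPKM stood below Adcy5 at 11.3 ± 0.629, and Ppp1r1b, Pde1b and Ptpn5 at 23.6, 23.4 and 20.0 had ranges that overlapped from one to the next. This order depends on the gene lengths of the deposited table, which were 0.54 to 1.33 times the exonic lengths in the annotation. With the annotation's lengths, Gng7 stood above Gnal in the controls and Ppp1r1b above Pde10a, and Ptpn5 kept its place above Arpp21.

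Differences in response between the 9 genes were tested for all 36 pairs by permuting the log2 ratio exactly, two-sided, over the 70 assignments of the 8 libraries. The smallest p this design can give is 0.0286, which 17 pairs reached, and after adjustment over the 36 pairs none passed (smallest adjusted p = 0.0605). Those 17 pairs were the 8 that hold Arpp21 and the 8 that hold Ppp1r1b, which share 1 pair, and Pde10a with Adcy5 and with Rgs9. The log2 ratio of Ppp1r1b to Arpp21 was higher in the cKO by 0.43 ± 0.04, and that of Rgs9 to Arpp21 by 1.16 ± 0.14. Among Gnal, Gng7, Pde10a and Pde1b the pairwise differences lay between 0.00 and 0.06, with SE of 0.03 to 0.13. The permutation p-values may be too small, because 1 direction of variation within the groups is missing from the deposited values. The same holds for the p-values and adjusted p-values of limma.

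The shares within gene families gave a comparison that a change of scale between libraries cannot move. Of 9 shares tested, 3 reached the smallest possible p of 0.0286, those of Gnal, Ppp1r1b and Arpp21, and none passed after adjustment over the 9 (smallest adjusted p = 0.0857). Gng7 went from 10.7% ± 0.798 to 9.03% ± 0.84 of the RPKM of 10 gamma subunits (exact permutation p = 0.0571). Among 18 phosphodiesterases, Pde10a went from 18.1% ± 1.08 to 15.8% ± 1.22 (exact permutation p = 0.0857) and Pde1b moved by -1.63 points from 13.7% ± 0.663 (exact permutation p = 0.114). Adcy5 went the other way, from 17.5% ± 0.586 to 19.0% ± 1.35 of 9 cyclases (exact permutation p = 0.0857). The summed RPKM of these cyclases went from 68.6 ± 4.03 to 59.4 ± 2.81, and Adcy1, the largest of them, from 24.2 to 17.9. Rgs9 made up 2.37% ± 0.158 and 2.55% ± 0.332 of 18 Rgs genes (exact permutation p = 0.429) and ranked 13 among them in the controls.

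**Figure D3:**
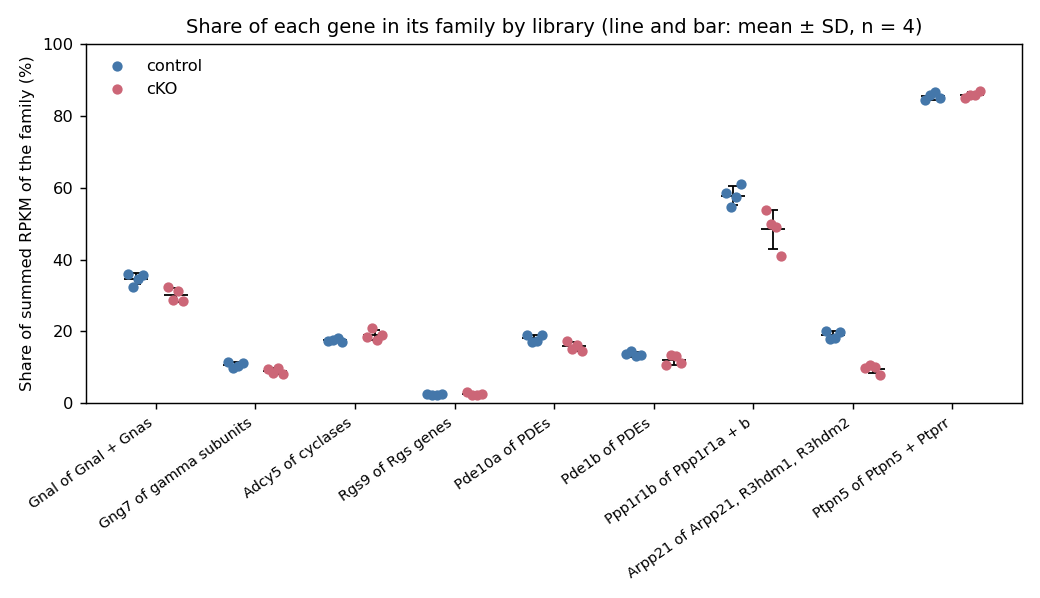
Share of the summed RPKM of its family that each of the 9 genes took (y axis, percent, from 0) in every library, with mean ± SD of 4 libraries in black. The shares of Ppp1r1b and Arpp21 moved by -9.39 and -9.40 percentage points (Arpp21 by -15.4 on read values) and that of Gnal by -4.52, each without overlap of the groups. The groups overlap for the shares of Gng7, Adcy5, Pde10a, Pde1b, Rgs9 and Ptpn5.

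The route around these genes was read from 14 lists with 162 other genes, of which 156 were tested: 20 fell (12.8%), 9 rose (5.77%) and 127 did not pass, with a median log2 fold change of -0.01. The 9 rises became 4 without control 4, without cKO 2, without cKO 4 or without the mean trend, and 4 without control 3 and cKO 4 together, whereas the falls numbered 16 to 23 over all alternatives. Among the receptors, Chrm4, the M4 muscarinic receptor of D1 neurons, fell by 1.05 ± 0.15 (adjusted p = 0.00113). Adora2a, the adenosine receptor of D2 neurons, rose by 0.31 ± 0.04 (adjusted p = 0.000477). Drd2 rose by 0.20 ± 0.05 (adjusted p = 0.0367), a call lost in 13 of 21 alternatives, among them 6 of the 8 that leave out 1 library, with adjusted p of 0.0602 to 0.108 in those 6. Drd1 did not pass (-0.20 ± 0.08, adjusted p = 0.217), except without control 3, where it was at -0.27 with an adjusted p of 0.0421. Drd3, Drd4, Drd5, Gpr6 and Gpr52 had mean read values of at most 168.5 in either group and did not pass. Drd5, at mean read values of only 12.25 in the controls and 5.75 in the cKO, passed without control 3 (-1.15, adjusted p = 0.0412).

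Among the G protein subunits, Gnai1, an inhibitory alpha subunit, rose by 0.47 ± 0.04 (adjusted p = 6.01e-05), 1 of 12 alpha subunits beside Gnal. Gnb4 fell by 0.53 ± 0.05 (adjusted p = 4.84e-05), 1 of 4 beta subunits, and Gng4 by 0.45 ± 0.07 (adjusted p = 0.00248), 1 of 9 gamma subunits beside Gng7. Of 8 other cyclases, Adcy1, which calcium and calmodulin stimulate, fell by 0.44 ± 0.06 (adjusted p = 0.00101) and Adcy9 by 0.39 ± 0.06 (adjusted p = 0.0018). Adcy8, at mean read values of 35.8 and 68.5, rose by 0.90 ± 0.21 (adjusted p = 0.0258), a call lost in 7 alternatives (adjusted p of 0.0614 to 0.129), among them those without control 1, 3 or 4 and without cKO 2 or 4. None of 4 chaperones of G proteins passed in limma or in the authors' deposited table, nor had any an unadjusted p under 0.05, with Ric8a at 0.06 ± 0.04 (adjusted p = 0.49).

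Of 16 other phosphodiesterases, Pde7b, specific for cyclic AMP and expressed in the striatum, fell by 0.94 ± 0.07 (adjusted p = 9.71e-06). Its read values went from 2342 ± 168 to 1224 ± 119. Pde2a fell by 0.20 ± 0.04 and Pde4d by 0.18 ± 0.04 (adjusted p = 0.00822 and 0.0216), while Pde8b rose by 0.55 ± 0.07 (adjusted p = 0.000689). The call for Pde2a was lost without control 3 and cKO 4 together (-0.16, adjusted p = 0.0759). That for Pde4d was lost in 8 alternatives, with adjusted p of 0.0502 to 0.115, including those without control 2 or 4 and without cKO 2 or 4.

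Of 18 RGS genes and partners beside Rgs9, 5 fell and 1 rose. Rgs4 fell by 1.42 ± 0.10, from 2101 ± 268 to 786 ± 92.4 (adjusted p = 4.62e-06), and Rgs6 by 1.04 ± 0.09 (adjusted p = 3.42e-05). Rgs17 fell by 0.32 ± 0.06 and Rgs14 fell by 1.72 ± 0.33 (adjusted p = 0.00561 and 0.00842), the latter at mean read values of 16.5 and 4.5. Both calls were lost without control 3 and cKO 4 together, where Rgs17 was at -0.30 and Rgs14 at -1.55 (adjusted p = 0.0656 and 0.0739). The other 12, like Rgs9 at -0.02, did not pass.

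Downstream of cyclic AMP, 3 of 16 genes of protein kinase A and its anchors fell and 2 rose. Akap5, which anchors the kinase at synapses, fell by 0.75 ± 0.04 (adjusted p = 7.02e-07), the regulatory subunit Prkar2b by 0.28 ± 0.03 (adjusted p = 0.000224) and the anchor Akap12 by 0.42 ± 0.06 (adjusted p = 0.0008). The kinase inhibitor Pkia rose by 0.17 ± 0.03 (adjusted p = 0.0106), a call lost in 3 alternatives, one of them without control 4 (adjusted p = 0.054). None of 20 partners of DARPP-32 and protein phosphatase 1 passed in limma or in the authors' deposited table. Neither did any of 5 genes that are R3H relatives of Arpp21 or other small phosphoproteins regulated by cyclic AMP. At an unadjusted p under 0.05 there were 5 and 0, and the smallest adjusted p was 0.161 for Csnk2a1 (0.10 ± 0.04) and 0.454 for Arpp19 (-0.06 ± 0.04), in limma. Csnk2a1 passed without cKO 3 (0.13, adjusted p = 0.0447).

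Ptk2b, the kinase PYK2 and a substrate of STEP, fell by 1.88 ± 0.13, from 288 ± 49.7 to 77.2 ± 10.0 (adjusted p = 5.23e-06), while Ptpn5 did not pass. Of 14 genes of CREB and of striatal Rap and Ras signalling, Rasgrf1 fell by 1.40 ± 0.10 and Rap1gap by 0.39 ± 0.04 (adjusted p = 7.97e-06 and 0.000187). Of 11 calcium and calmodulin genes, Pcp4 rose by 0.57 ± 0.12 (adjusted p = 0.0142) although its groups overlapped. That call was lost in 5 alternatives, with adjusted p of 0.05 to 0.133, including those without control 3 and without cKO 2 or 4.

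**Figure D4:**
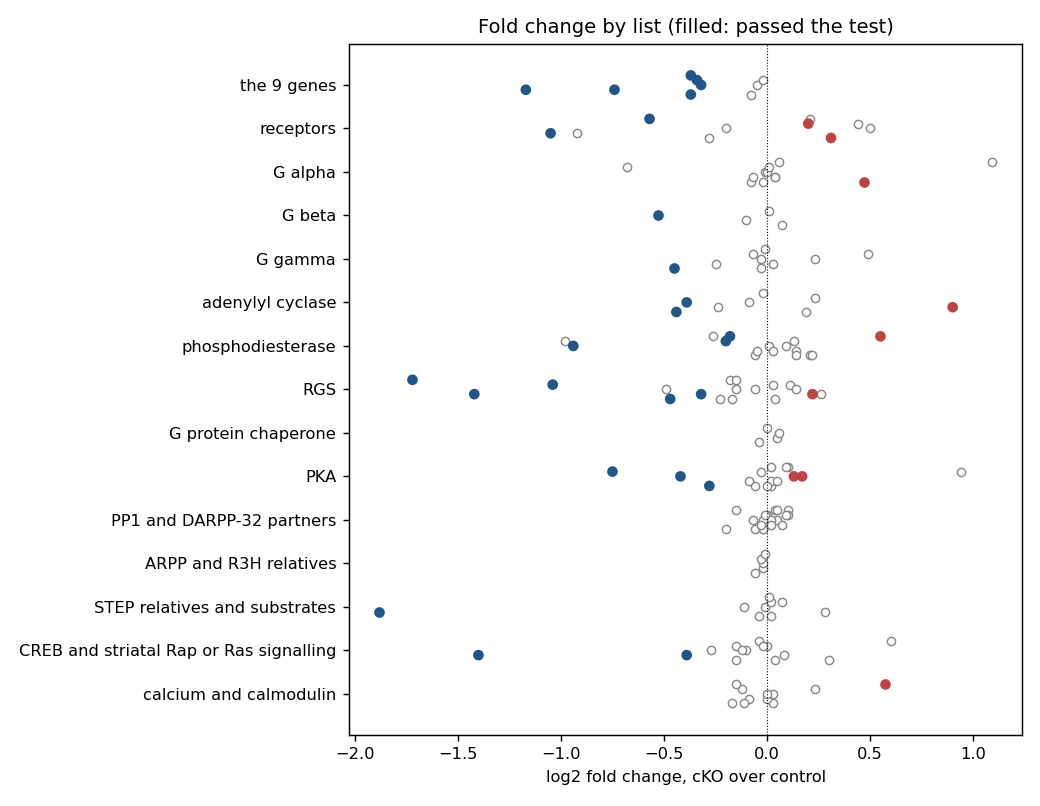
Log2 fold change of cKO over control (x axis) for the 9 genes and for each list of their pathway (y axis), 1 point a gene, with genes that passed filled (blue lower, red higher). In the top row 6 of 9 points are filled and blue. Over the 14 lists 20 are blue and 9 red. The rows of chaperones, of phosphatase partners and of ARPP and R3H genes hold open points alone.

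Markers of other cells moved with the groups. Of 12 microglial markers 11 rose, and their summed RPKM was 60.1 to 68.5 in the controls and 96.9 to 116 in the cKO. Of 8 markers of interneurons from the neighbouring medial ganglionic eminence and of cholinergic cells, 4 fell, with sums of 142 to 178 and 93 to 135. Of 6 erythroid markers 3 rose (393 to 618 and 559 to 779). Among these 3, Hba-a1 and Hba-a2 had identical read values in every library. They are thus not separate results, and the erythroid sums hold both. Of the glial markers 0 of 8 passed in limma or in the authors' deposited table (4 at an unadjusted p under 0.05 in limma). Their sums still did not overlap, at 153 to 172 in the controls and 144 to 149 in the cKO. Of the vascular markers 0 of 8 passed in either (1 at an unadjusted p under 0.05 in limma), with sums of 79 to 86 and 81.7 to 97.1. Of 12 LGE and striatal markers, Dlx5 and Dlx6 rose and Rarb fell. The part of these cells in the values of the 9 genes was not tested. In every list of other cells each marker had reads in at least 1 library. The 9 genes summed to 283 to 316 RPKM in the controls and 207 to 246 in the cKO, with cKO 4 lowest. Without control 3 and cKO 4, 5 of the 9 genes fell, all but Pde1b of the 6.

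Genes whose values followed the 9 most closely were sought among 11723 genes with a mean read value of at least 100. The likeness was the Pearson correlation over the 8 libraries, which include both groups and share the authors' adjustment. Rarb, a retinoic acid receptor of striatal neurons, followed Ppp1r1b (r = 0.994) and was itself at -0.40. The nearest to Gnal was Rxrg, another retinoid receptor (r = 0.989). For Gng7 the nearest was Prelid3a (r = 0.99), with Rxrg second (r = 0.988). The nearest to Arpp21 was Actn2, an actin crosslinker (r = 0.995, log2 fold change -2.14), to Pde10a the calcium channel subunit Cacna2d3 (r = 0.989) and to Pde1b the ubiquitin ligase Znrf1 (r = 0.982). For Adcy5, Rgs9 and Ptpn5 the nearest were Enoph1 (r = 0.972), Klhl3 (r = 0.976) and Rassf10 (r = 0.970). Each r is the highest among 11723 genes over 8 libraries, and such a search gives high values by itself. Adcy5, Rgs9 and Ptpn5 reached 0.970 or more without passing the test. Shared regulation was not tested.

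The 250 bases before the annotated starts were searched on both strands, in RefSeq promoters of GRCm38.p6, which held 20 entries for 7 of the 9 genes and none for Ppp1r1b and Gnal. More of the 20 belong to Arpp21 than to any other gene, and some of its entries overlap. Arpp21 thus had more chances of a match, and the 20 are not separate promoters. The cyclic AMP response element TGACGTCA was in none of the 20 and in 1.55% of all 32851 promoters. Its shorter core TGACG, which the full element contains, was in 3 of the 20 (Arpp21 and Gng7) and in 17.77% of all. CTAATG, a core that LIM-homeodomain factors bind, was in 3 (Arpp21 at 2 starts, and Rgs9) and in 6.36% of all. TAATTA, a homeodomain palindrome that shares the letters TAAT with CTAATG but cannot overlap it, was in none of the 20 and in 4.84% of all. The 3 windows with CTAATG are shown because Arpp21, which fell most, and Rgs9, which did not pass, both hold it. They run 5′ to 3′ in the gene's direction, all on the minus strand, with the match in capitals (CATTAG is the match on the other strand).
Arpp21, chr9:112187841-112187870: ctggaagctggtCATTAGtattagaaaccc
Arpp21, chr9:112188518-112188547: aaagaaagtgtaCATTAGagcctggattgt
Rgs9, chr11:109298216-109298245: gcgcagtgcatgCTAATGagcgcgcggcgc
The matches began 92, 188 and 52 bases before their starts. They describe the letters of these windows, and no binding was measured.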

How the data were processed

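RNA was measured in 8 libraries, 4 per group, grouped by their titles; the kit was directional and poly(A)-selected, per the labels. STAR, featureCounts and edgeR, with build mm10, were the authors' tools per the submitters' processing notes; their versions and the strand setting were not known here. Among the columns deposited, those called raw hold a score: their upper quartiles lay between 1624 and 1635, and 1 direction within groups had almost no variation (singular value 0.000241, next 0.0433), so they are adjusted values and not counts, and SDs and SEs are somewhat too small. The plan named a count test only for counts, so limma was used. The deposited RPKM columns are these values scaled by library sum and gene length, judging from the numbers. Log2 fold changes and p-values deposited by the authors served as an alternative; their sign is cKO over control. Log2(value + 1) of genes with at least 1 in 4 libraries (15698) was compared in limma 3.58.1 with a mean trend (R 4.3.3; the package data.table was at version 1.17.8). Fold changes are on that scale, which understates change in low genes. Permutation tests used scipy 1.17.1 in Python 3.11.15, with pandas 2.3.3 for tables and matplotlib 3.10.9 for figures. Positions are from GENCODE vM21. The limma fit was tried on simulated data with known changes, all larger than those of Gnal, Gng7, Pde10a and Pde1b. That trial therefore does not check changes as small as theirs. The 9 genes, the lists and the tests were chosen with earlier results of these data known. Named are the 9 genes, the receptors, relatives in the shares and, per other list, up to 4 passing genes with the smallest p, or else the smallest p; the 3 most correlated genes were sought and the first is named, with Rxrg second for Gng7. A gene that this rule names is not reported here but stayed in the counts. Dlx5, Dlx6, Hba-a1, Hba-a2 and 2900079G21Rik were named after their values were seen. There were 21 alternatives, 20 for genes too low for the filter at a mean of 100: pseudocounts 0.5 and 5, filters, scalings, RPKM, a covariate, no trend, replicate blocks and libraries left out. The litter and sex of each embryo are not given.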

Additional observations from a re-analysis of the deposited data

Results flagged for a closer look

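In 4 of 120 groups of 4 libraries (102 from the read values of 51 named genes and 18 from the 9 family shares), 1 library stood further from the others than Dixon's 95% limit for 4 values allows; chance alone marks about 1 group in 20. Arpp21 was at 1629 in cKO 4, against 2173, 2227 and 2228 in the other cKO libraries. Pde4d was at 2003 in cKO 1, against 2052, 2053 and 2060. Csnk2a1 was at 3722 in cKO 3, against 4034, 4066 and 4068. Gng3, a gamma subunit, was at 3617 in cKO 1, against 4481, 4548 and 4639.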

How the results depend on the processing

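Each value was computed again with 1 choice changed at a time, apart from a replicate block combined with equal library sums. Over 51 named genes, 1020 of 1065 values stayed on the same side of the threshold, 42 lost and 3 gained the call (Drd1, Drd5 and Csnk2a1). Changes of sign occurred in 0 values that passed the test, but in some near 0 that did not, such as Rgs9 (-0.07 to 0.03). Of the 9 genes, Arpp21, Ppp1r1b, Gnal and Gng7 passed in 21 of 21 alternatives, Pde10a in 20, Pde1b in 19, and Adcy5, Rgs9 and Ptpn5 in 0. The 9 pathway genes that rose became 4 without the mean trend, 4 without control 3 and cKO 4, and 4 to 8 when 1 library was left out (4 without control 4, cKO 2 or cKO 4). Without control 3 and cKO 4, 394 of all genes fell and 216 rose, against 594 and 451. Rising genes numbered 290 with the missing direction as a covariate and 256 to 414 when 1 library was left out (256 without control 4, 287 without cKO 4). Causes were not tested, beyond the fewer libraries. The share of Arpp21 moved by -15.4 points on read values in place of RPKM, against -9.40. The replicate numbers did not pair the libraries: same-numbered deviations correlated at 0.23, -0.03, -0.11 and -0.53 over 11723 genes. With a replicate block, 6 of the 9 genes fell, 21 pathway genes fell and 12 rose, and 648 of all genes fell and 551 rose. Depth is unknown, so counting error cannot be given.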
